A study of Rattus norvegicus with 6 samples.

Results

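miR-143, miR-145, miR-199a and miR-214 were followed in small RNA libraries of RSC96 cells, a rat Schwann cell line. They were taken by the names of their hairpin precursors, rno-mir-143, rno-mir-145, rno-mir-199a and rno-mir-214, with the counts of each hairpin split into its 5p and 3p arms. They are 4 of the 821 hairpins in the files, and 6 of their arms are among the 932 arms with counts. Together these arms held 1257 of 3983041 counts.

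The cells had been kept for 48 h in high glucose or in low glucose, and the low glucose libraries were the controls. There were 3 libraries in each group. The labels give no glucose concentration, no control for osmolarity and no difference between the groups other than glucose. The series title concerns exosomes, the small vesicles that cells release, but the labels name total RNA and do not say whether vesicles or whole cells were used. All 6 libraries share the cell line and the length of treatment, so they describe 1 line. The labels give nerve as the tissue, while their extraction text describes retina. Nothing states that the replicates were separate cultures, so a p-value here is set against the spread of 3 libraries that may be technical repeats. In a bulk library, fewer cells with a miRNA and less of it in each cell cannot be told apart.

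A miRNA is cut from a hairpin transcript, and 1 arm of the hairpin is loaded into an Argonaute protein, where the bases near its 5′ end, the seed, pair with target mRNAs. miR-143 and miR-145 come from neighbouring hairpins and are best known in smooth muscle, fibroblasts and pericytes, where they favour the contractile state. miR-199a and miR-214 come from another pair of neighbouring hairpins and are best known in fibroblasts, bone and other mesenchyme, where they have been linked to matrix production and fibrosis. In nerve such cells lie around the Schwann cells, in the nerve sheaths and the vessel walls.

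The mature sequences as RefSeq gives them for the GRCr8 assembly are printed 5′ to 3′ for the 6 arms with counts, with the seed, bases 2 to 8, in capitals. They are shown because the counts are compared with their first and last bases. RefSeq places the mature miR-143-3p at chr18:57371373-57371394 on the minus strand and miR-145-3p at chr18:57369997-57370017 on the same strand, both within the long non-coding RNA gene Carmn. It places miR-199a-3p at chr13:77116294-77116315 and miR-214-3p at chr13:77121713-77121733 on the plus strand, both within the span of the protein-coding gene Dnm3.
miR-143-3p: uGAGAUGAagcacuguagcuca
miR-145-5p: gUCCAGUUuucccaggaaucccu
miR-145-3p: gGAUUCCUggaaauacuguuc
miR-199a-5p: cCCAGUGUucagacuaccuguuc
miR-199a-3p: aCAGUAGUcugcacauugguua
miR-214-3p: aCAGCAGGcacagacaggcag
The 6 seeds differ from each other, and no other rat mature miRNA in the RefSeq table has any of them.

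The libraries were very unequal in depth. The high glucose libraries held 963706 to 1354456 counts and the low glucose libraries 114615 to 148143, a ratio of 9.31 between the group means. Depth and glucose therefore cannot be told apart where an arm has few counts. Levels are given as CPM, the counts of an arm per 1000000 counts of its library, scaled by the trimmed mean of M-values (TMM), and reads span the whole miRNA, so no length enters. Of 297 arms with enough counts to test, 190 were called, or 64.0%, at an adjusted p under 0.05 by edgeR's quasi-likelihood test with Benjamini-Hochberg adjustment. Higher calls made up 41.4% and lower calls 22.6%, and the median log2 fold change of tested arms was 0.68. Among miRNAs known from Schwann cells and myelin, mir-338 and mir-138 were listed in no library, and the summed level of the rest was 37.3 to 65.5 CPM in high and 40.2 to 71.7 CPM in low glucose.

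The 4 hairpins made up a small share of every library. They held 345, 359 and 389 counts in the high glucose libraries, or 0.0358%, 0.0281% and 0.0287% of each library. In the low glucose libraries they held 55, 59 and 50 counts, or 0.0445%, 0.0398% and 0.0436%. All 3 high glucose shares were below all 3 low glucose shares. miR-143-3p was the most abundant arm of the 4 hairpins in every library, followed by miR-199a-3p. Only these 2 of the 6 arms had enough counts to be tested. Of these 2, 1 was called lower and 0 higher, beside the 22.6% and 41.4% of all tested arms.

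miR-143-3p, the arm by which miR-143 acts in smooth muscle, did not pass the test. It had 229, 251 and 303 counts in the high glucose libraries and 35, 39 and 34 in the low glucose libraries. This gave 237, 205 and 248 CPM in high glucose and 244, 261 and 305 CPM in low glucose. The groups overlapped, since low glucose replicates 2 and 3 were above every high glucose library and replicate 1 was not. The mean level was 230 ± 22.3 CPM (SD, n = 3) in high and 270 ± 31.3 CPM (SD, n = 3) in low glucose. The log2 fold change of high over low glucose was -0.23 (SE 0.22, edgeR adjusted p = 0.414), and 100 of the 297 tested arms had a lower one. By mean level miR-143-3p stood in place 116 of the 932 arms in high glucose and in place 103 in low glucose. Under upper quartile scaling miR-143-3p was called lower (log2 fold change -0.81, edgeR adjusted p = 0.0107). The median over the tested arms was 0.12 with that scaling in place of 0.68, so the call on miR-143-3p turned on the scaling.

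miR-199a-3p, the more abundant arm of its hairpin, was lower in high glucose. It had 95, 50 and 51 counts in the high glucose libraries and 20, 18 and 16 in the low glucose libraries. This gave 98.3, 40.8 and 41.7 CPM in high glucose and 139, 121 and 143 CPM in low glucose. All 3 high glucose libraries were below all 3 low glucose libraries, a separation that 25.9% of tested arms showed in that direction. The first high glucose library lay between the groups, at more than the level of the other two high glucose libraries and below each control. The mean was 60.3 ± 32.9 CPM (SD, n = 3) in high and 134 ± 12.1 CPM (SD, n = 3) in low glucose, or 2.23-fold lower. The log2 fold change was -1.16 (SE 0.43, edgeR adjusted p = 0.0457), and 45 of the 297 tested arms had a lower one.

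The direction of the miR-199a-3p difference held under all 18 other ways of processing, with log2 fold changes from -1.76 to -0.94, but its call was lost under 10 of them. Without the first high glucose library the log2 fold change was -1.69 (edgeR adjusted p = 0.00402). Without any other single library the call was lost, with edgeR adjusted p from 0.0685 to 0.146. With DESeq2's Wald test it was -1.28 and the adjusted p 0.0774. When every library was thinned to 114497 reads, miR-199a-3p had 7, 3 and 4 counts in high glucose and 19, 13 and 15 in low glucose, and the log2 fold change was -1.68 (edgeR adjusted p = 0.00196). At equal depth the same arm thus stayed lower in each high glucose library than in each control. miR-143-3p had 27, 15 and 30 counts after thinning in high and 29, 28 and 34 in low glucose, with overlapping groups.

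**Figure D1:**
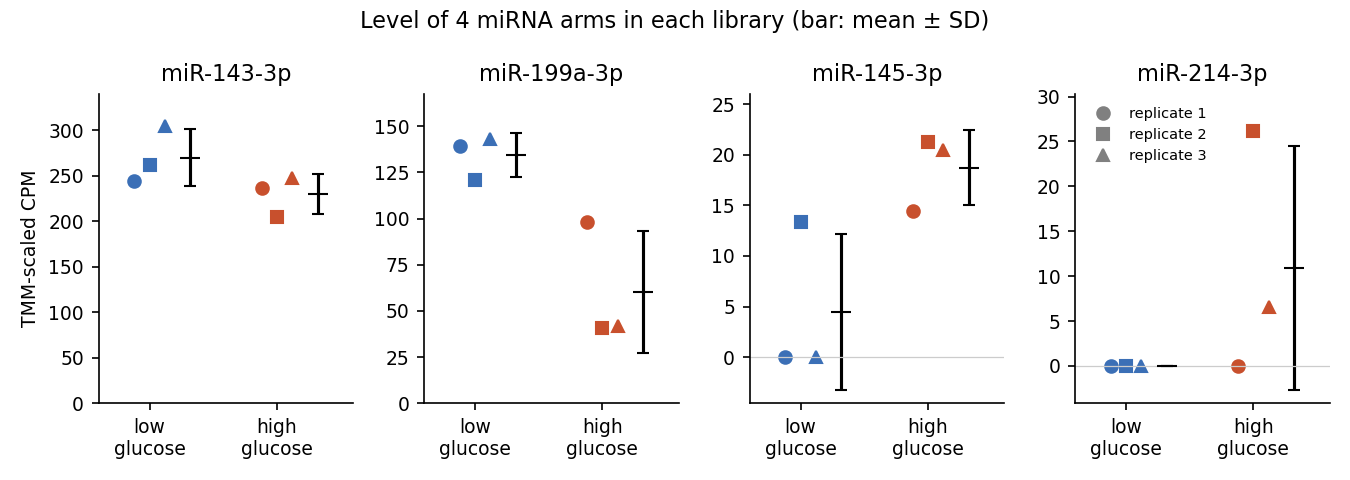
Level of miR-143-3p, miR-199a-3p, miR-145-3p and miR-214-3p in each library, in TMM-scaled CPM on a linear axis that differs between panels, with low glucose in blue and high glucose in red. Symbols mark the replicate number and bars the mean ± SD of 3 libraries; the 3 high glucose points of miR-199a-3p lie below the 3 low glucose points, and those of miR-143-3p overlap with them.

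**Figure D2:**
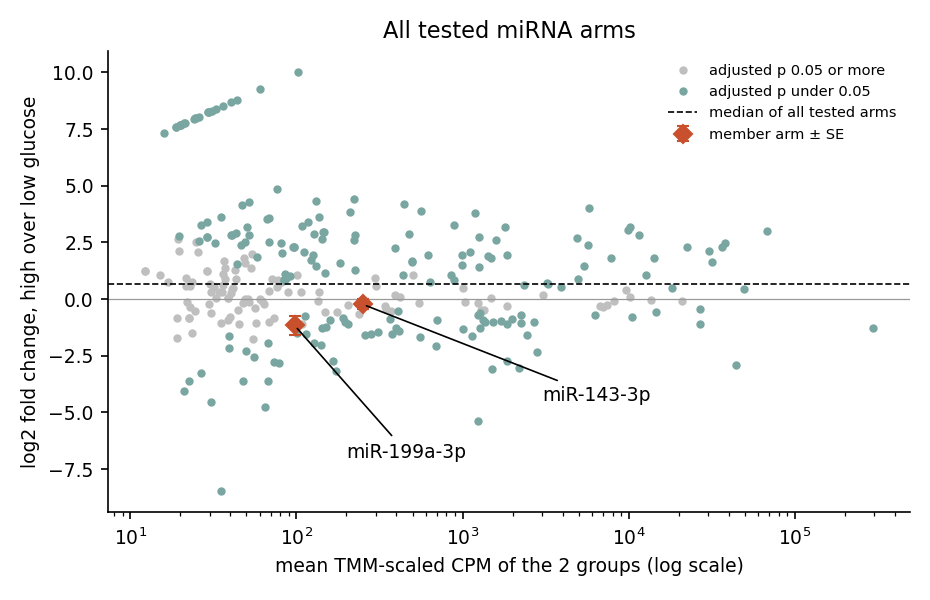
Log2 fold change of high over low glucose against the mean level of both groups on a log axis for the 297 tested arms, with miR-143-3p and miR-199a-3p as diamonds with their SE. The dashed line is the median of all tested arms at 0.68, and both diamonds lie below it.

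The balance between the 2 tested arms shifted with the level of miR-199a-3p. After adding 0.5 to each count, miR-143-3p had 2.40, 4.98 and 5.89 times the counts of miR-199a-3p in the high glucose libraries. In the low glucose libraries the ratio was 1.73, 2.14 and 2.09. Each high glucose ratio was above each low glucose ratio, and the scaling of the libraries does not enter such a ratio. The log2 ratio was 2.05 ± 0.69 (SD, n = 3) in high and 0.98 ± 0.17 (SD, n = 3) in low glucose, a difference of 1.06. An exact two-sided permutation test gave p = 0.1, the smallest that 3 against 3 libraries can give, and 0.217 after adjustment over 13 measures of these arms. Ratios were formed only where both arms had counts in each library, which left out the other arms.

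**Figure D3:**
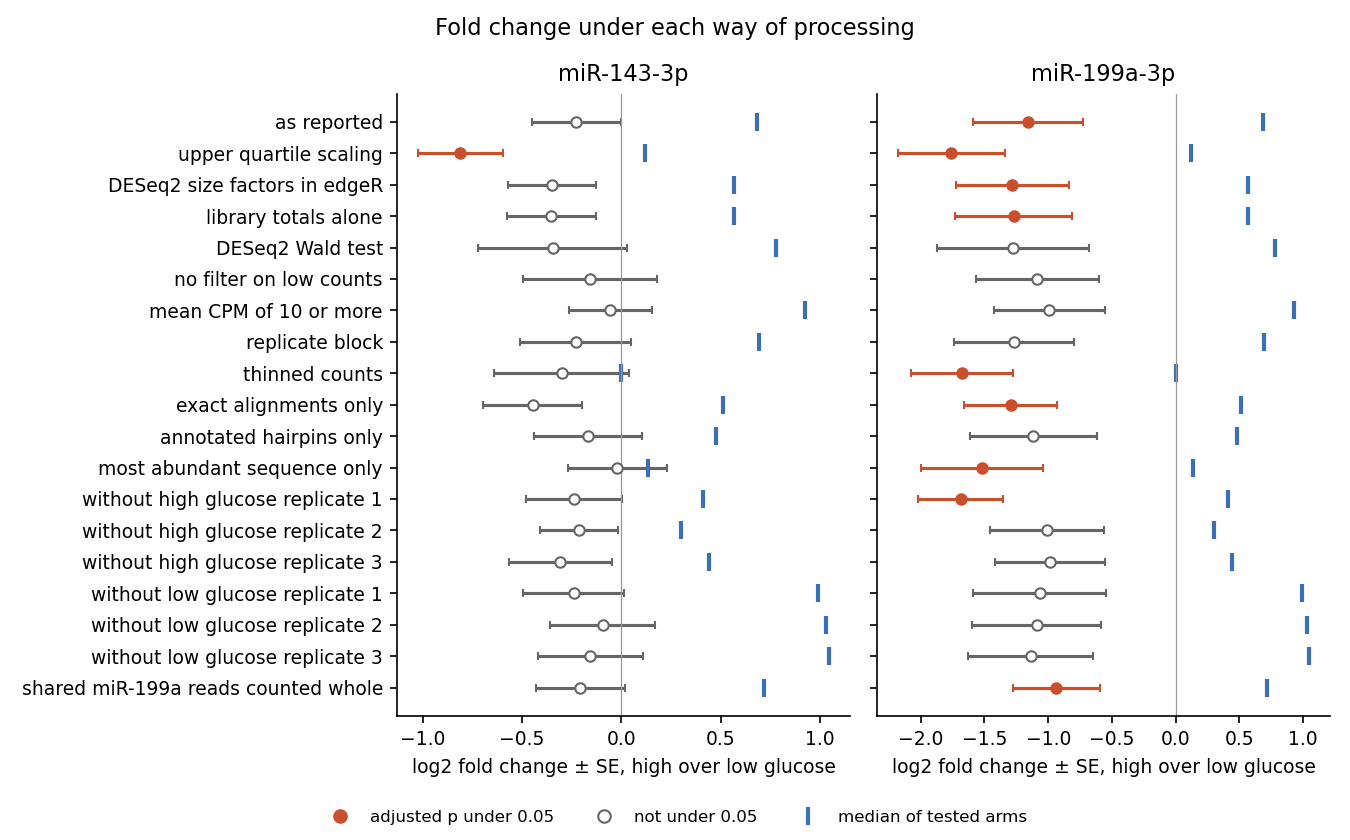
Log2 fold change ± SE of miR-143-3p and miR-199a-3p under each way of processing, with filled red points where the edgeR or DESeq2 adjusted p was under 0.05 and a blue bar at the median of tested arms. The blue bar of the fit with no filter on low counts, at 3.53, lies outside the plotted range and is not drawn. Every point lies below 0, but those of miR-199a-3p change between filled and open.

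The other arms of the 4 hairpins were close to the limit of what these libraries could show. miR-145-3p had 14, 26 and 25 counts in the high glucose libraries and 0, 2 and 0 in the low glucose libraries, or 14.5, 21.2 and 20.5 CPM against 0, 13.4 and 0 CPM. The high glucose libraries were all above the low glucose ones, which held for 45.8% of the tested arms. At the mean high glucose level, however, the low glucose libraries would hold 2.69, 2.79 and 2.09 counts, and the files list only sequences with at least 2 reads. Over the group totals of 65 and 2 counts, the ratio of the level in high to that in low glucose was 3.85, with an exact 95% interval of 1.02 to 32.5 that covers counting error only. After thinning to equal depth the counts were 2, 4 and 0 against 0, 2 and 0, and the groups overlapped. For miR-145-3p, depth and glucose cannot be told apart.

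miR-145-5p, the arm of mir-145 that is usually the abundant one, was listed only in the first high glucose library, with 7 counts. In that library 66.7% of the mir-145 counts lay on the 3p arm, and in the other two high glucose libraries 100% did. miR-143-5p was listed in no library, so all mir-143 counts lay on the 3p arm. miR-199a-5p had 2 counts in the third high glucose library and was listed in no other, which left 96.2% of the mir-199a counts of that library on the 3p arm and 100% in the other five. The files thus held these hairpins almost wholly as 3p arms.

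miR-214-3p, which has been linked to fibrosis and bone formation, had 0, 32 and 8 counts in the high glucose libraries, or 0, 26.1 and 6.55 CPM, and was listed in no low glucose library. The high glucose libraries thus differed among themselves as much as from the controls. The low glucose libraries would hold 1.56, 1.63 and 1.22 counts at the mean high glucose level, so its absence from their lists was not informative at this depth. miR-214-5p was listed in no library. The gene of mir-214 overlaps that of mir-3120 in the RefSeq table, and mir-3120 had 10 counts in the third high glucose library and was listed in no other.

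The sequences of miR-143-3p differed at their last bases and hardly at all at their first. All 891 counts began at position 60 of the hairpin, which is the first base of the RefSeq sequence, and 889 carried its seed. The most abundant form lacks the last RefSeq base. The following 3 forms are shown for their 3′ ends, with the last base in capitals, as DNA letters as in the files. The last of them differs from the hairpin at its last base, A22T, counted from 1 at the 5′ end of the miRNA with the hairpin base first.
miR-143-3p, most abundant form: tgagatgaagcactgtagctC
miR-143-3p, full RefSeq length: tgagatgaagcactgtagctcA
miR-143-3p, A22T: tgagatgaagcactgtagctcT
The most abundant form took 44.7 ± 3.75% of the arm (SD, n = 3) in high and 46.1 ± 9.76% (SD, n = 3) in low glucose, with overlapping groups (exact permutation p = 1).

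Forms of miR-143-3p that end in a T absent from the hairpin took a larger share in each high glucose library than in each control. Terminal uridylyl transferases are known to add such a base to miRNAs, and a read alone does not show how it arose. The share was 30.1%, 16.3% and 17.2% of the arm's counts in the high glucose libraries and 8.57%, 10.3% and 5.88% in the low glucose libraries. The mean was 21.2 ± 7.74% (SD, n = 3) against 8.24 ± 2.21% (SD, n = 3). An exact two-sided permutation test gave p = 0.1, the smallest possible here, and 0.217 after adjustment over the 13 measures, 8 of which, this one included, were added after the data were seen. Reads that matched the hairpin exactly made up 65.5%, 77.3% and 79.9% in high and 85.7%, 89.7% and 94.1% in low glucose, with separate groups. This is not a separate observation, since reads that end in such a T are not exact matches. All other annotated 3p arms together were separate in the same direction, at 71.3% to 72.2% in high and 74.1% to 76.8% in low glucose.

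Among reads of miR-143-3p that reach base 22 with an A or a T there, the T form had 57, 41 and 52 counts and the templated A form 19, 22 and 39 counts in the high glucose libraries. The T form thus took 75%, 65.1% and 57.1% of these reads, with exact 95% intervals of 63.7% to 84.2%, 52.0% to 76.7% and 46.3% to 67.5%. In the low glucose libraries it had 3, 4 and 2 counts beside 4, 14 and 7, or 42.9%, 22.2% and 22.2%. The intervals were wide there, at 9.90% to 81.6%, 6.41% to 47.6% and 2.81% to 60.0%. That of low glucose replicate 2 lay below those of high glucose replicates 1 and 2, that of low glucose replicate 3 lay below that of high glucose replicate 1, and the other pairs overlapped. The sum of all other annotated 3p arms moved the same way by less, with 14.4% to 14.5% of counts ending in such a T in high and 12.4% to 13.1% in low glucose. With every library thinned to 114497 reads, an alternative added after the data were seen, the share of miR-143-3p ending in such a T was 22.2%, 20% and 16.7% in high and 10.3%, 10.7% and 5.88% in low glucose. At equal depth each high glucose share thus remained above each low glucose share, with a difference in means of 10.6 percentage points beside 13.0 before thinning. These thinned shares come from a random draw and rest on few reads. The arm had 27, 15 and 30 counts in high and 29, 28 and 34 in low glucose. Without the first high glucose library, which had the highest share, the difference before thinning was 8.51 percentage points.

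miR-199a-3p varied at both ends. Of its 250 counts, 66.8% began at position 70 of the hairpin, the RefSeq start, 24% at position 71 and 7.2% at position 69. A start 1 base later gives another seed, so 1 form of each main start that matches the hairpin is shown with bases 2 to 8 in capitals.
miR-199a-3p, start at 70: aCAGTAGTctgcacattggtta
miR-199a-3p, start at 71: cAGTAGTCtgcacattggt
miR-199a-3p, start at 69: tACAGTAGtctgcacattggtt
The share at position 70 was 55.8%, 80% and 64.7% in the high glucose libraries and 80%, 77.8% and 68.8% in the low glucose libraries, and the groups overlapped (exact permutation p = 0.4). In the first high glucose library 37 of the 95 counts began at position 71. Of these, 22 belonged to a form of 21 bases with the substitution A21T, which no other library listed.

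The miR-199a-3p reads were shorter in high glucose. Their mean length was 21.1 ± 0.26 nt (SD, n = 3) in high and 21.6 ± 0.10 nt (SD, n = 3) in low glucose, with separate groups (exact permutation p = 0.1, adjusted 0.217). Sequences under 20 nt made up 12.6%, 20% and 11.8% of the arm in the high glucose libraries and were listed in no low glucose library. All of these sequences also match a predicted hairpin, described below, and their reads are divided equally between it and mir-199a. The form of full RefSeq length is not shared and is counted whole. How this division bears on the lengths was not tested. The low glucose libraries held only 20, 18 and 16 counts of the arm, and the files list only sequences with at least 2 reads. For the lengths of this arm, depth and glucose therefore cannot be told apart. All other annotated 3p arms together also had more sequences under 20 nt in high glucose, at 6.03% to 8.08% against 2.68% to 2.75%. The form of full RefSeq length took 25.5 ± 5.32% (SD, n = 3) in high and 36.9 ± 3.37% (SD, n = 3) in low glucose, again with separate groups and an exact permutation p of 0.1, adjusted 0.217. Reads of miR-199a-3p that end in an untemplated T did not follow the pattern of miR-143-3p. They made up 41.1%, 0% and 3.92% in high and 20%, 16.7% and 0% in low glucose, and the first high glucose library stood apart from the rest of its group.

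**Figure D4:**
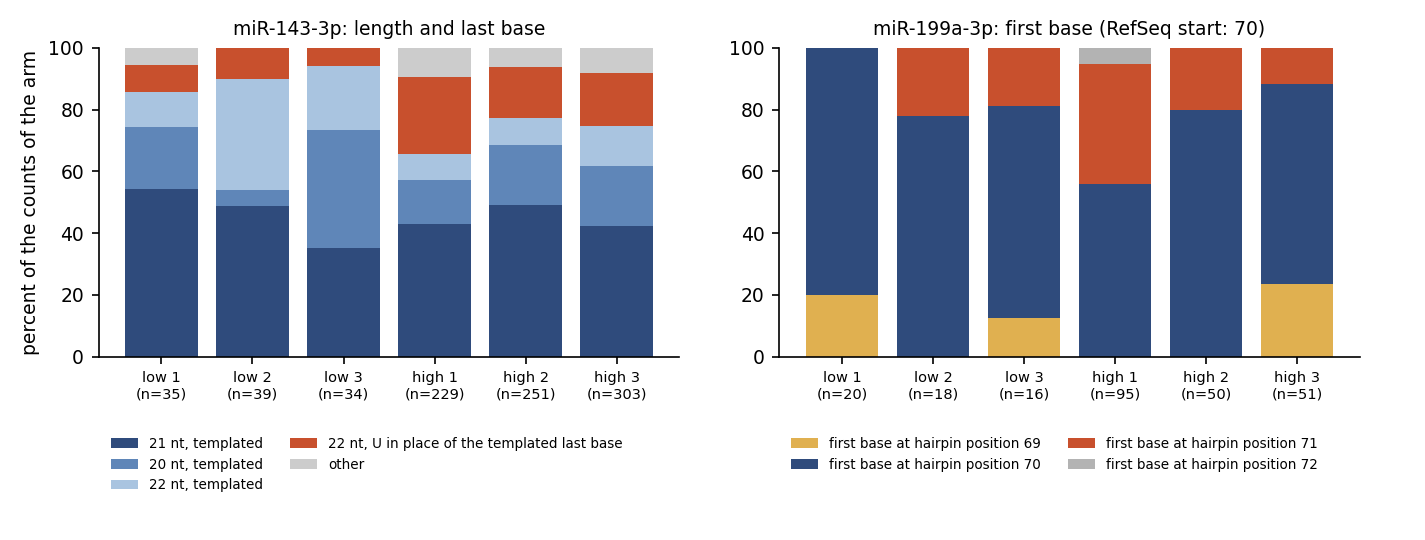
Percent of the counts of an arm in each library, on a linear axis from 0, with n the counts of the arm. The left panel shows miR-143-3p by length and last base, with the 22 nt form ending in an untemplated U (written T in the files) in red, and the right panel miR-199a-3p by the hairpin position of its first base. The red share of miR-143-3p is larger in each high glucose library than in each low glucose library, and 37 of the 95 miR-199a-3p counts of the first high glucose library began at position 71.

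Part of miR-199a-3p rests on reads that match 2 hairpins. Of its 250 counts, 120 (48%) came from sequences that the files divide equally between mir-199a and a predicted hairpin of the authors, number 23825 on chromosome 3. The predicted hairpin had counts on its 3p arm only, and no count of the other members was listed under another hairpin. All 40 miR-214-3p counts, however, carried the same alignment flag, R, as the shared miR-199a-3p reads. Whether the miR-214-3p reads match another place was not tested. With the shared reads given whole to mir-199a, the log2 fold change was -0.94 (edgeR adjusted p = 0.0422), an alternative added after the data were seen. With exact alignments only it was -1.29 (edgeR adjusted p = 0.0133), from 53.8, 39.2 and 40.1 CPM in high and 111, 87.1 and 143 CPM in low glucose.

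The reads of miR-145-3p and miR-214-3p began at bases other than those RefSeq gives. None of the 67 miR-145-3p counts began at the RefSeq start, hairpin position 54. The first high glucose library had its 14 counts at position 55, the second and the second low glucose library had all theirs at position 56, and the third high glucose library had 21 at position 56 and 4 at position 57. All 40 miR-214-3p counts began at position 70, which is 1 base before the RefSeq start. The most abundant form of each is shown with bases 2 to 8 in capitals.
miR-145-3p: aTTCCTGGaaatactgttct
miR-214-3p: tACAGCAGgcacagacagga
These 7 bases match the seed of no mature rat miRNA in the RefSeq table. In the second high glucose library, 28 of the 32 miR-214-3p counts carried the substitution C20A. miR-145-5p began at its RefSeq start in all 7 counts. Each low arm was thus read as 1 to 4 distinct sequences, against 14 for miR-143-3p and 13 for miR-199a-3p.

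The annotated arms whose levels followed miR-143-3p most closely over the 6 libraries were miR-185-5p, miR-26a-5p and miR-221-5p. After each log2 CPM profile was centred on its own mean, they differed from it by a root mean square of 0.086, 0.10 and 0.16 on the log2 scale, among 196 annotated arms compared. The arms closest to miR-199a-3p were miR-23b-3p, miR-23a-3p and miR-103-3p, at 0.27, 0.28 and 0.29. Each of these 3 was called lower in high glucose, with log2 fold changes of -1.40, -1.57 and -1.09 (edgeR adjusted p = 0.00758, 0.00136 and 0.00677). They were chosen for profiles like that of miR-199a-3p over the same libraries, so their direction follows from the choice. The nearest profiles of miR-199a-3p were therefore farther from it than those of miR-143-3p were from miR-143-3p.

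Other miRNAs known from fibroblasts, matrix, skeletal tissue and smooth muscle did not move together. Of 18 such hairpins 15 were listed under the names used, and 20 of their arms were tested. The name mir-31 did not take mir-31a, which was listed and is left out of these counts. Its arm miR-31a-5p was tested and not called (log2 fold change -0.66, edgeR adjusted p = 0.198). Of the 20 arms, 6 were called higher, 6 lower and 8 did not pass, with a median log2 fold change of -0.28 beside 0.68 over all tested arms. The higher ones included miR-222-3p (log2 fold change 3.05, SE 0.20, edgeR adjusted p = 2.81e-05) and miR-221-3p (0.91, SE 0.17), which act on the cell cycle inhibitor p27, and miR-222-5p (1.87, SE 0.52). The lower ones included miR-21-5p, a miRNA raised in many fibrotic tissues (-1.28, SE 0.19, edgeR adjusted p = 0.000948), miR-218a-5p (-2.31, SE 0.21) and miR-152-3p (-0.98, SE 0.16). With upper quartile scaling 3 were called higher and 11 lower, and miR-221-3p and miR-222-5p lost their calls at edgeR adjusted p = 0.0967 and 0.0747. mir-199b, a close relative of mir-199a, was listed under no hairpin name, and the RefSeq genes used here hold no entry so named. Its absence by name therefore does not show that its reads were absent. Whether they were counted under mir-199a or under a predicted hairpin was not tested.

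Markers of other cell types were listed beside these arms. For skeletal and cardiac muscle, mir-133a and mir-133b were not listed. The summed level of the list was 92.1 to 131 CPM in high and 134 to 328 CPM in low glucose. Its 1 tested arm, miR-499-5p, was called lower. The list leaves out mir-1b, whose 3p arm went the other way without a call (log2 fold change 0.89, edgeR adjusted p = 0.325). For erythroid cells both tested arms, miR-451-5p and miR-486-5p, were called lower, and the list summed to 762 to 954 CPM in high and 3250 to 6395 CPM in low glucose. The arms of these lists were named after their values were seen. Endothelial markers summed to 46.6 to 67.0 CPM in high and 0 to 101 CPM in low glucose, with mir-126b not listed, and 0 of 1 tested arms was called. Leukocyte markers summed to 49.9 to 249 CPM in high and 104 to 161 CPM in low glucose, with 0 of 3 tested arms called. The neuronal list, with mir-124 not listed, summed to 15903 to 22091 CPM in high and 2795 to 4684 CPM in low glucose, and 2 of its 3 tested arms, miR-128-3p and miR-129-5p, were called higher. The liver list summed to 9192 to 15590 CPM in high and 3197 to 4693 CPM in low glucose, with higher calls for both tested arms, miR-122-5p and miR-192-5p. The retinal list, with mir-96 not listed, summed to 31.9 to 116 CPM in high and 48.7 to 107 CPM in low glucose, and its 1 tested arm, miR-183-5p, was called lower. Epithelial markers summed to 3.27 to 10.6 CPM in high and 0 to 17.9 CPM in low glucose, with no arm tested. The called arms of the muscle, erythroid and retinal lists thus moved the same way as miR-199a-3p. Those of the neuronal and liver lists moved the other way. The untested retinal arms had higher means in high glucose, miR-211-5p at 38.7 against 4.64 CPM and miR-182-3p at 20.7 against 5.97 CPM. The untested muscle arms, miR-1-3p, miR-206-3p, miR-208a-3p and miR-208b-3p, were listed only in high glucose libraries. Of the untested liver arms, miR-194-5p had the lower mean in high glucose, at 3.16 against 11.9 CPM. miR-194-3p had the higher mean there, at 4.08 against 0 CPM. At such counts depth and glucose cannot be told apart. The part of these lists in the miR-199a-3p difference was not tested.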

How the data were processed

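Counts were used as deposited by the authors, per the file headers as reads per distinct sequence and hairpin. Tools in the submitters' processing notes are cutadapt 1.9.3 and Novoalign 3.02.12, with no role given. The genome build was not given in the sources used here, nor was the hairpin database. Listed sequences had 16 to 40 nt, at least 2 reads and at most 1 mismatch, so a 0 can hide sequences with 1 read. Without molecular identifiers, an interval covers counting error alone.

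Counts were summed per arm with hairpin copies joined, a sequence being 5p or 3p as its centre lies before or after the midpoint of its hairpin. The test was edgeR 4.0.16's quasi-likelihood test (R 4.3.3, limma 3.58.1) with TMM scaling, robust dispersions, filterByExpr (minimum count 10) and adjusted p under 0.05 by Benjamini-Hochberg over all 297 tested arms. DESeq2 1.42.0, other scalings and filters, a replicate block, thinning, exact alignments, annotated hairpins, the most abundant sequence and leaving out each library were alternatives. Python 3.11.15, pandas 2.3.3, NumPy 2.4.6, SciPy 1.17.1 and matplotlib 3.10.9 did the rest. Sequences came from RefSeq's GRCr8 tables.

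Every arm of the 4 hairpins is named, with the 3 annotated arms nearest in profile to each arm with a mean of 50 or more CPM, and the 3 most abundant called arms per direction of the mesenchymal list. Members and lists were chosen with earlier results of these data known. In counts simulated for the 932 arms of this comparison, the fit recovered 32 of 37 arms changed 4-fold and 17 of 38 changed 2-fold, with 2 false calls among 51. The simulation changed 200 arms, as many up as down, with the same dispersion for every arm and no loss of single reads. The data differ from this, with 190 of 297 tested arms called, so the share of false calls among them was not tested.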

Additional observations from a re-analysis of the deposited data

How the results depend on the processing

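The count of member arms called lower, 1 as reported, was 2 with upper quartile scaling. It was 0 with DESeq2's Wald test, no filter on low counts, a mean CPM of 10 or more, the replicate block and annotated hairpins only, and 0 to 1 when each library was left out. The cause was not tested. No member arm was called higher under any alternative run. For all arms, the 123 higher calls became 67 with thinned counts, which leave 162 arms to test, 78 with annotated hairpins only, and 79 to 117 when each library was left out. The 67 lower calls became 41 to 59 when each library was left out. With upper quartile scaling 91 arms were called higher and 93 lower, so the excess of higher calls was lost with that scaling. It remained with DESeq2 size factors in edgeR, at 111 higher and 73 lower, and with library totals alone, at 112 and 72. The log2 fold change of miR-143-3p stayed below 0 in all 18 alternatives, from -0.81 to -0.02, and passed the threshold in 1. The share of its most abundant sequence went from -1.42 to 8.84 percentage points, high minus low glucose, with exact alignments only. Libraries with the same number did not deviate together, with correlations of 0.045, -0.0007 and -0.028. With the replicate block the log2 fold change of miR-199a-3p was -1.27 (edgeR adjusted p = 0.0561), and 104 arms were called higher and 58 lower. Each low glucose library held 16 to 39 counts of each tested member arm, and at most 2 of any other.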
